A study of Mus musculus with 12 samples.

Results

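Mitochondrial fusion, fission and mitophagy were followed through 10 of the 33641 gene symbols of the deposited table across the hearts of 12 mice: *Mfn1*, *Mfn2* and *Opa1*, which encode the proteins that fuse mitochondria, *Dnm1l*, *Fis1* and *Mff*, which belong to the machinery that divides them, and *Pink1*, *Bnip3*, *Bnip3l* and *Fundc1*, which act in the selective removal of mitochondria. They were chosen by name for their known roles, with earlier results of these data already known, and were found by gene symbol. All 10 passed the filter on low values (1 TPM or more in 3 or more libraries), as did 13158 genes in all, and none was listed below 6.89 TPM in any library. TPM is transcript abundance per transcript length, scaled to a fixed total per library. The mice were wild-type C57BL/6 males that had undergone a sham operation or surgery causing a myocardial infarction (MI), with 3 mice in each of 4 groups: sham with vehicle, sham with prednisone, MI with vehicle and MI with prednisone. Prednisone, a synthetic glucocorticoid, was injected into the peritoneum at 1 mg/kg once a week at lights-on, for 6 weeks, from 2 weeks after surgery. Treatment was given at an age of about 10 weeks, the labels give the age of every mouse as about 16 weeks, and myocardium was taken 24 hours after the last injection. The labels do not say which region of the infarcted heart was sampled, and each library comes from 1 mouse.

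Mitochondria in heart muscle are constantly joined and split. Mitofusins join outer membranes, OPA1 joins inner membranes and shapes the cristae, and DRP1 (the product of *Dnm1l*) is recruited to the outer membrane, where it constricts and cuts the organelle. Damaged mitochondria are marked for degradation by the PINK1 kinase, or are handed to the autophagy machinery by receptors of the outer membrane, among them BNIP3, NIX (the product of *Bnip3l*) and FUNDC1. Heart muscle cells depend on this turnover because they are densely packed with mitochondria.

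The results below turn on which transcripts of a gene were lower, so the coding sequence that separates the transcripts of *Opa1* and of *Bnip3* is shown first. The 3 stretches, from GENCODE M21 on GRCm38 and read on the strand of the gene, are given in lower case, with no base singled out. The first is exon 6 of 29 in the 3153-base *Opa1* transcript (chr16:29597586-29597696, 111 bases, plus strand), and the second is exon 5 of 30 in the 3230-base *Opa1* transcript (chr16:29588823-29588876, 54 bases, plus strand). Both are coding exons absent from the 6230-base *Opa1* transcript, and both are a multiple of 3 bases long. The third is the coding end of the 1756-base *Bnip3* transcript, in its last exon, 6 of 6 (chr7:138891918-138891960, 43 bases, minus strand), which the 719-base *Bnip3* transcript does not contain.
Opa1 exon of the 3153-base transcript: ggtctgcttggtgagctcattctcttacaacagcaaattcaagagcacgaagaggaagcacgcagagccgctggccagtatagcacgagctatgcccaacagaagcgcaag
Opa1 exon of the 3230-base transcript: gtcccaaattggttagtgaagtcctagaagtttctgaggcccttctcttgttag
Bnip3 coding end of the 1756-base transcript: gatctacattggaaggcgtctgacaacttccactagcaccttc

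Of the 6 genes that were lower with prednisone in MI, *Opa1* and *Bnip3* were the ones with a match to an NRF1-type site in a promoter window, and their windows are shown for that reason, a choice made after the matches were seen. Each window holds 250 bases before and 50 after an annotated start (RefSeq, GRCm38.p6), and 9 of the 10 genes had at least 1 window. *Bnip3l* had none. Capitals mark matches, on either strand, to the letters of an NRF1-type site (GCGC, any 2 bases, GCGC; NRF1 is a regulator of nuclear genes for mitochondria), ACGTG and GCGTG (cores of the hypoxia response element), CACGTG (an E-box, which contains ACGTG) and TGTTCT (a glucocorticoid receptor half-site). Of 32851 windows of this length in the RefSeq table, 6.23% held the NRF1-type site, 19.6% ACGTG, 32.4% GCGTG, 7.15% CACGTG and 19.0% TGTTCT.
Opa1 promoter, chr16:29579084-29579383, plus strand: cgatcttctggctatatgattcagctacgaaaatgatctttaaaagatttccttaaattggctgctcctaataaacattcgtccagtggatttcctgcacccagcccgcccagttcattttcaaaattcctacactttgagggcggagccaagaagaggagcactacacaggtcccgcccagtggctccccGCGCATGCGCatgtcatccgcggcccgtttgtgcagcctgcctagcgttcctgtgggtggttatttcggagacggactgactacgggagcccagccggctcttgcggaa
Bnip3 promoter, chr7:138909457-138909756, minus strand: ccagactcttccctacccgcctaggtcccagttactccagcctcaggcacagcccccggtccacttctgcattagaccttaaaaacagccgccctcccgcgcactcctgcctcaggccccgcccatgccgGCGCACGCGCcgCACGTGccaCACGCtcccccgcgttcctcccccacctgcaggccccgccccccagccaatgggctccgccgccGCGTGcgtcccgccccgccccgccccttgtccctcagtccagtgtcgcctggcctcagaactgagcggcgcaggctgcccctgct
The *Opa1* window held 1 NRF1-type match and no match to the other letters. The *Bnip3* window held 1 NRF1-type match, 2 to ACGTG, 3 to GCGTG, 1 to CACGTG and 0 to TGTTCT. A window of *Pink1* was the only other one among these genes with an NRF1-type match. These matches describe the letters in the windows, and binding was not measured.

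Several features of the libraries bear on every value below. Per library, 11690 to 14307 genes were at 1 TPM or more, the top being MI vehicle replicate 3, and mitochondrially encoded RNA took 21.6% to 42.0% of TPM. Nuclear copies of mitochondrial genes took 17.7%, 20.3% and 15.3% of TPM in MI prednisone replicates 1 to 3 and 9.32% to 14.6% in the other 9 libraries. Because TPM values are shares, the median gene itself differed between groups: by 0.39 (log2 scale) in MI against sham under vehicle, -0.06 under prednisone, 0.07 for prednisone in sham and -0.41 for prednisone in MI. Summed markers of ventricular muscle ran from 39840 to 42208 TPM in sham vehicle and from 41164 to 47337 TPM in sham prednisone. They ran from 28359 to 35498 TPM in MI vehicle and from 39477 to 42590 TPM in MI prednisone. For prednisone in MI, 5 of these 10 markers were higher and 5 lower, with a median of 0.16 on the log2 scale. Of them 4 were called higher and 1 lower, beside 2.5% and 34.9% of all genes. Summed fibroblast markers ran from 392 to 529 TPM in sham vehicle, 934 to 1269 TPM in MI vehicle and 343 to 595 TPM in MI prednisone, and summed macrophage markers from 224 to 330, 520 to 1207 and 256 to 481 TPM. Summed atrial muscle markers ran from 855 to 2709 TPM in the sham groups, 2813 to 4122 TPM in MI vehicle and 4358 to 6191 TPM in MI prednisone, above every other library. For prednisone in MI, 3 of the 5 were called higher, beside 2.5% of all genes, with a median of 1.98 on the log2 scale. The sum hides mixed directions in MI against sham under vehicle. There 3 of the 5 atrial markers were lower and 2 higher, with a median of -0.77, and 1 was called higher, beside 15.1% of all genes. All 10 ventricular muscle markers were detected, and no marker in the lists was at 0 in every library of a group. The part of these differences in the results below was not tested. In tissue RNA, fewer cells of a type and less RNA per cell cannot be told apart. The same MI vehicle and MI prednisone libraries enter several comparisons, which are therefore not independent.

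By level, *Pink1* stood highest and *Fundc1* lowest in every group. In sham hearts with vehicle the order by mean TPM was *Pink1*, *Mfn2*, *Mfn1*, *Fis1*, *Bnip3*, *Mff*, *Bnip3l*, *Opa1*, *Dnm1l* and *Fundc1*. The libraries of *Mfn1* and *Fis1* overlapped there, as did those of *Bnip3* and *Mff* and those of *Mff* and *Bnip3l*, so those neighbours did not differ beyond their spread. In MI with prednisone *Fis1* stood second and *Opa1* ninth, below *Dnm1l*, although the libraries of *Opa1* and *Dnm1l* overlapped, as did those of *Fis1* and *Mfn2* and those of *Mfn2* and *Mfn1*.

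**Figure D1:**
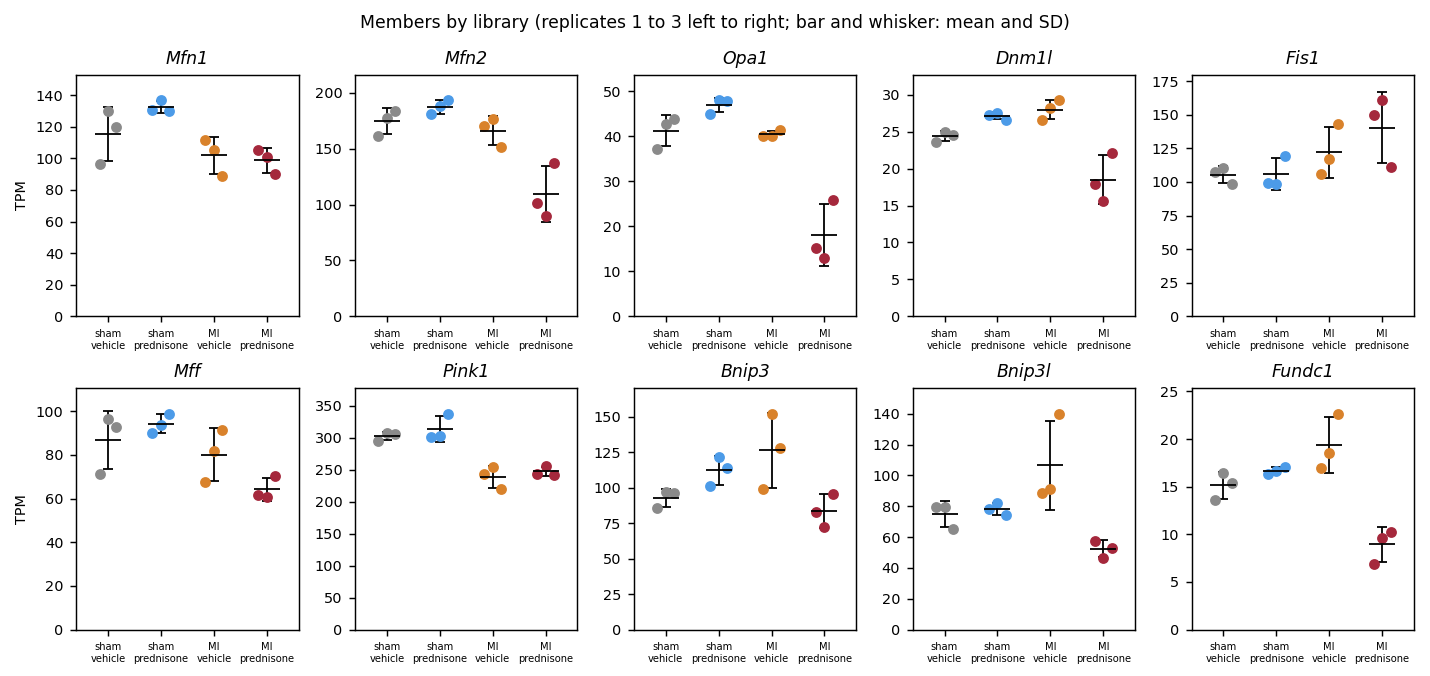
TPM (y axis, linear, from 0) of each of the 10 genes in the 12 libraries, by group, with points for single mice, a bar for the mean and whiskers for the SD (n = 3). The 3 MI prednisone points lie below all 9 others for *Opa1*, *Mfn2*, *Dnm1l*, *Bnip3l* and *Fundc1*, and *Pink1* is lower in both MI groups than in both sham groups. Neither the share of all genes below the 9 others in MI prednisone nor that of genes lower in both MI groups was counted. Of all genes 42.6% were below MI vehicle in all 3 MI prednisone mice.

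In MI against sham under vehicle, 1 of the 10 genes (*Pink1*) was called lower and 0 higher by limma at an adjusted p under 0.05, where 16% of all genes were called (0.904% lower and 15.1% higher). The median difference of the 10 genes was 0.08 on the log2 scale, against 0.39 for all genes. *Dnm1l*, *Bnip3*, *Bnip3l* and *Fundc1* were higher in all 3 MI mice than in all 3 sham mice without being called. Such a separation upward was present in 40.8% of all genes, and downward in 4.17%, where *Pink1* was the 1 member. After rescaling, which is described below with its calls, the differences were lower: -0.59 for *Mfn1*, -0.49 for *Mfn2*, -0.43 for *Opa1*, -0.52 for *Mff* and -0.76 for *Pink1*, of which *Mff* and *Pink1* were called. The rescaled values of *Bnip3* and *Bnip3l* were 0.01 and 0.06, against 0.42 and 0.48 in deposited TPM.

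After infarction with prednisone the pattern was another one. Relative to MI with vehicle, 6 of the 10 genes were called lower and 0 higher (*Opa1*, *Fundc1*, *Bnip3l*, *Mfn2*, *Dnm1l* and *Bnip3*), and the libraries of the same 6 did not overlap. Among all genes 37.4% were called (34.9% lower and 2.5% higher), and 42.6% were separated downward. The median of the 10 genes was -0.58 and that of all genes -0.41. Relative to sham with prednisone, 8 of 10 were called lower and 0 higher (all but *Fis1* and *Bnip3*), where 16.8% of all genes were called, 14.1% lower and 2.73% higher. The median of the 10 was -0.55 against -0.06 for all genes, and 9 were separated downward, as were 32.2% of all genes. The 8 calls became 4 without MI prednisone replicate 1 or without any 1 of the sham prednisone replicates, and 5 without MI prednisone replicate 2.

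Prednisone in sham hearts moved none of the 10 past the threshold. All 10 differences were at or above 0, between 0.00 and 0.27 on the log2 scale, with a median of 0.13 against 0.07 for all genes. Of all genes 0.114% were called by limma (0.0532% higher and 0.0608% lower), 469 had an unadjusted p under 0.05, and 0 of those were among the 10. *Mfn1*, *Opa1*, *Dnm1l* and *Bnip3* were separated upward, as were 15.6% of all genes. The 95% intervals of the 10 differences reached no lower than -0.34 and no higher than 0.61.

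**Figure D2:**
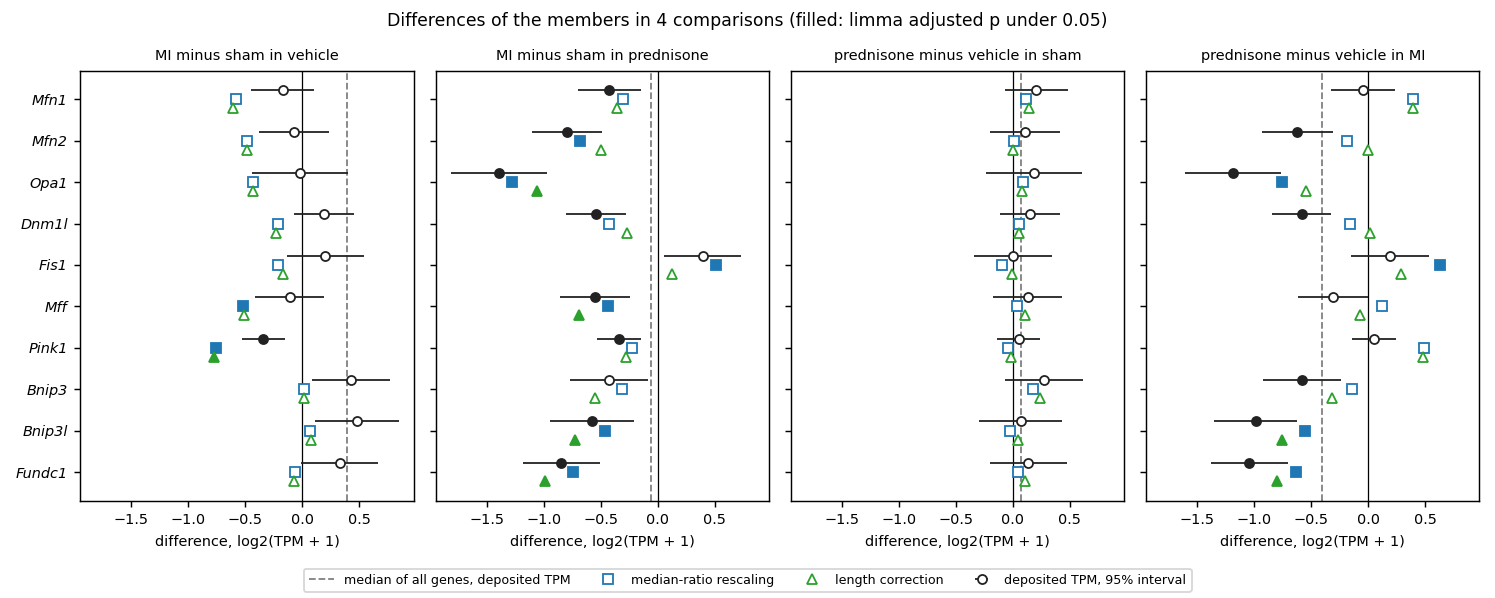
Difference of each of the 10 genes in log2(TPM + 1) (x axis) in 4 comparisons, with 95% intervals for the deposited TPM, the same difference after median-ratio rescaling (squares) and after a correction for transcript length (triangles), and the median of all genes (dashed). Filled symbols passed the test. For prednisone in MI, 6 deposited values are filled, and 3 of those (*Opa1*, *Bnip3l* and *Fundc1*) are filled after rescaling.

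The direct test of whether prednisone differed in effect between MI and sham (the interaction) called 6 of the 10 lower and 0 higher, where 21.3% of all genes were called, 20.7% lower and 0.54% higher. They were the same 6 genes. The median interaction was -0.73 for the 10 and -0.48 for all genes. Since the median of all genes moved so far, each call was repeated after median-ratio rescaling, which sets the typical gene of every library to the same level. For prednisone in MI that left 3 of the 10 called lower (*Opa1*, *Bnip3l* and *Fundc1*) and 1 higher (*Fis1*), beside 15.1% lower and 13.8% higher of all genes. The length correction left *Bnip3l* and *Fundc1* called lower there, beside 7.68% of all genes. For MI under prednisone the rescaled counts were 5 lower and 1 higher, beside 14.3% lower and 12.2% higher of all genes, and the length correction left 4 lower, beside 7.98%. For MI under vehicle rescaling gave 2 lower (*Pink1* and *Mff*) and 0 higher, beside 3.68% lower and 4.1% higher of all genes, and the length correction left *Pink1*, beside 3.17% lower. For the interaction rescaling left 1 lower (*Fundc1*, -0.67, limma adjusted p = 0.039) and 1 higher (*Fis1*, 0.72, limma adjusted p = 0.028), beside 5.28% lower and 5.21% higher of all genes, and a correction for transcript length left 0 in either direction, beside 2.03% of all genes.

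The fusion genes did not move as a block. *Opa1* (chr16:29579334-29654884, plus strand) encodes the GTPase that fuses inner membranes. It was listed at 37.3, 42.8 and 43.9 TPM in the sham vehicle mice, 45.1, 48.0 and 47.9 in the sham prednisone mice, 40.1, 40.1 and 41.4 in MI vehicle, and 15.2, 13.1 and 25.9 in MI prednisone. The 3 MI prednisone hearts were the lowest of all 12, and replicate 3 was the nearest to the rest. How many of all genes were lowest in these 3 hearts was not counted. The mean in MI fell from 40.5 ± 0.73 TPM with vehicle to 18.0 ± 6.86 TPM with prednisone (SD, n = 3 each), 55.5% lower, a log2 difference of -1.18 (SE 0.19, limma adjusted p = 0.0017). Against sham prednisone the difference was -1.39 (SE 0.19, limma adjusted p = 0.0019), and in MI against sham under vehicle it was -0.02 (95% interval -0.45 to 0.40). After median-ratio rescaling *Opa1* was still called lower with prednisone in MI (-0.76, limma adjusted p = 0.032), and after the length correction it was not (-0.55, limma adjusted p = 0.092).

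*Mfn2* (chr4:147873599-147904704, minus strand), the mitofusin that also tethers mitochondria to the endoplasmic reticulum, was listed at 161.7, 177.9 and 184.1 TPM in the sham vehicle mice, 181.0, 188.5 and 193.2 in the sham prednisone mice, 170.4, 176.9 and 151.3 in MI vehicle, and 101.3, 89.5 and 137.3 in MI prednisone. The MI prednisone hearts were again below the other 9. In MI the mean fell from 166.2 ± 13.3 to 109.4 ± 24.9 TPM with prednisone (SD, n = 3), a log2 difference of -0.62 (SE 0.14, limma adjusted p = 0.0070). That call was lost once libraries were rescaled (-0.18, limma adjusted p = 0.55) and after the length correction (-0.0037, limma adjusted p = 0.99).

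*Mfn1* (chr3:32529465-32579239, plus strand), the other mitofusin, had no such drop. Its values were 96.5, 130.1 and 120.2 TPM in the sham vehicle mice, 130.7, 136.7 and 130.2 in the sham prednisone mice, 111.6, 105.5 and 89.1 in MI vehicle, and 105.3, 100.6 and 90.2 in MI prednisone. Both MI groups covered nearly the same range. The difference for prednisone in MI was -0.04 (95% interval -0.32 to 0.23, limma adjusted p = 0.80). It changed sign with rescaling (0.39) and with the length correction (0.39), without passing the test under either. Against sham prednisone *Mfn1* was lower in all 3 MI prednisone mice (-0.42, SE 0.13, limma adjusted p = 0.042), a call lost after rescaling (limma adjusted p = 0.28) and the length correction (limma adjusted p = 0.28).

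The ratio of *Mfn1* to *Mfn2* within a library does not depend on how the library was scaled. It was 0.66 ± 0.07 for sham vehicle, 0.71 ± 0.03 for sham prednisone, 0.61 ± 0.04 for MI vehicle and 0.94 ± 0.25 for MI prednisone (TPM ratio, SD, n = 3), and within MI prednisone it ran from 0.657 to 1.124. On the log2 scale prednisone was associated with a difference of 0.57 in MI and 0.10 in sham, 0.34 on average (exact permutation within surgery, two-sided p = 0.035, Benjamini-Hochberg adjusted p = 0.105 over 6 tests of 3 ratios, smallest possible p 0.005). The adjusted p did not pass 0.05.

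Of the fission genes, 1 was called lower with prednisone in MI, beside 34.9% of all genes. *Dnm1l* (chr16:16312230-16358959, minus strand), which encodes the dynamin-related GTPase that cuts mitochondria, was listed at 23.6, 25.0 and 24.6 TPM in the sham vehicle mice, 27.3, 27.5 and 26.6 in the sham prednisone mice, 26.6, 28.2 and 29.2 in MI vehicle, and 17.9, 15.6 and 22.1 in MI prednisone. All 3 MI prednisone values were below the other 9. In MI the mean fell from 28.0 ± 1.32 to 18.5 ± 3.30 TPM (SD, n = 3), a log2 difference of -0.58 (SE 0.12, limma adjusted p = 0.0044). The call was lost once libraries were rescaled (-0.16, limma adjusted p = 0.46), and the sign turned with the length correction (0.01, limma adjusted p = 0.95).

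*Mff* (chr1:82724890-82752394, plus strand), an outer-membrane receptor for DRP1, was listed at 71.5, 96.4 and 92.7 TPM in the sham vehicle mice, 90.2, 94.0 and 98.9 in the sham prednisone mice, 67.5, 81.8 and 91.3 in MI vehicle, and 61.8, 60.7 and 70.3 in MI prednisone. With prednisone it was lower in MI than in sham, in all 3 mice (-0.55, SE 0.14, limma adjusted p = 0.021), and it was called lower there after rescaling and after the length correction. The call was lost with no filter on low genes (limma adjusted p = 0.064), without any 1 sham prednisone replicate (0.052 to 0.077), and without MI prednisone replicate 1 or 2 (0.081 and 0.083). The MI groups overlapped with each other (-0.31, 95% interval -0.61 to -0.0030, limma adjusted p = 0.099), and the sign of that difference turned with rescaling (0.13).

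*Fis1* (chr5:136953275-136966234, plus strand), a small outer-membrane adaptor of fission, was the gene of the 10 whose mean was highest in MI prednisone. Its values were 107.7, 110.4 and 98.1 TPM in the sham vehicle mice, 99.1, 98.8 and 119.4 in the sham prednisone mice, 106.2, 117.2 and 143.2 in MI vehicle, and 149.8, 160.6 and 111.0 in MI prednisone. Every group overlapped another, and MI prednisone replicate 3 lay within the sham range. The differences were 0.19 for prednisone in MI (limma adjusted p = 0.34) and 0.39 for MI under prednisone (limma adjusted p = 0.11). After rescaling both were called higher (0.63, limma adjusted p = 0.0045, and 0.51, limma adjusted p = 0.012), and after the length correction neither was. At 787 bases, *Fis1* had the shortest mean transcript of the 10, against 4620 bases for *Opa1*.

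The level of *Dnm1l* relative to *Opa1* set fission against inner-membrane fusion within each library. The TPM ratio was 0.593 ± 0.037 for sham vehicle, 0.578 ± 0.025 for sham prednisone, 0.691 ± 0.023 for MI vehicle and 1.08 ± 0.19 for MI prednisone (SD, n = 3). It was higher in MI than in sham by 0.53 on the log2 scale (exact permutation within treatment, two-sided p = 0.005, the smallest possible, adjusted p = 0.03 over 6 tests), 0.21 under vehicle and 0.85 under prednisone. With each gene represented by its most abundant transcript alone, the difference was 0.18 (exact permutation p = 0.18). Prednisone was associated with 0.28 (exact permutation p = 0.075, adjusted p = 0.12).

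In deposited TPM *Pink1*, in contrast, followed surgery. *Pink1* (chr4:138313409-138326307, minus strand), the kinase that accumulates on depolarised mitochondria, was listed at 295.3, 307.2 and 306.2 TPM in the sham vehicle mice, 301.2, 303.0 and 337.8 in the sham prednisone mice, 243.8, 253.7 and 219.6 in MI vehicle, and 243.6, 256.3 and 242.4 in MI prednisone. All 6 MI hearts were below all 6 sham hearts. How many of all genes were separated in this way was not counted. Within one treatment, MI was separated downward from sham in 4.17% of all genes under vehicle and 32.2% under prednisone. The mean fell from 302.9 ± 6.57 to 239.0 ± 17.5 TPM under vehicle (SD, n = 3), 21.1% lower, a log2 difference of -0.34 (SE 0.09, limma adjusted p = 0.029). It was likewise -0.34 under prednisone (SE 0.09, limma adjusted p = 0.022), where the call was lost after rescaling (-0.22, limma adjusted p = 0.35) and the length correction (-0.28, limma adjusted p = 0.31). In deposited TPM prednisone differed from vehicle by 0.05 in MI (95% interval -0.14 to 0.24) and by 0.05 in sham. The interaction there was 0.00 (95% interval -0.27 to 0.27). For the most abundant transcript alone the interaction was -0.395 (limma adjusted p = 0.14). After rescaling and the length correction, the estimated fall from sham to MI was larger under vehicle than under prednisone. The interaction of *Pink1* was not called under either setting. The call under vehicle was kept after rescaling (-0.76, limma adjusted p = 0.029) and the length correction (-0.78, limma adjusted p = 0.036). It was lost with MI vehicle replicate 3 left out (-0.28, limma adjusted p = 0.065) and with any 1 sham vehicle replicate left out (limma adjusted p from 0.068 to 0.114). Without MI vehicle replicate 1, *Bnip3* and *Bnip3l* were called higher in MI as well (0.59, limma adjusted p = 0.013, and 0.59, limma adjusted p = 0.025), which made 3 calls.

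All 3 receptors of mitophagy among the genes followed were called lower with prednisone in MI, beside 34.9% of all genes. *Bnip3* (chr7:138890836-138909519, minus strand), a receptor induced in low oxygen, was listed at 85.4, 96.6 and 96.0 TPM in the sham vehicle mice, 101.2, 121.3 and 113.9 in the sham prednisone mice, 99.1, 151.9 and 128.0 in MI vehicle, and 82.9, 72.2 and 95.6 in MI prednisone. In MI the mean fell from 126.3 ± 26.5 to 83.5 ± 11.7 TPM with prednisone (SD, n = 3), a log2 difference of -0.58 (SE 0.16, limma adjusted p = 0.015). The call was lost after rescaling (-0.14, limma adjusted p = 0.58), the length correction (-0.32, limma adjusted p = 0.32), and without MI prednisone replicate 2 (-0.48, limma adjusted p = 0.058).

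*Bnip3l* (chr14:66985239-67008877, minus strand), whose product NIX clears mitochondria from maturing red cells, was listed at 79.5, 79.7 and 65.3 TPM in the sham vehicle mice, 78.1, 82.1 and 74.4 in the sham prednisone mice, 88.4, 91.3 and 139.9 in MI vehicle, and 57.4, 46.5 and 53.1 in MI prednisone. MI vehicle replicate 3 stood far above the other libraries, and the 3 MI prednisone hearts were the lowest of the 12. In MI the mean fell from 106.6 ± 29.0 to 52.3 ± 5.46 TPM (SD, n = 3), 50.9% lower, a log2 difference of -0.98 (SE 0.17, limma adjusted p = 0.0020). It was also called lower after rescaling (-0.55, limma adjusted p = 0.0075) and after the length correction (-0.76, limma adjusted p = 0.0065).

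*Fundc1* (chrX:17556564-17572325, minus strand), the least abundant of the 10 and a receptor also linked to low oxygen, was listed at 13.7, 16.5 and 15.3 TPM in the sham vehicle mice, 16.3, 16.6 and 17.1 in the sham prednisone mice, 17.0, 18.5 and 22.7 in MI vehicle, and 6.89, 9.66 and 10.3 in MI prednisone. The MI vehicle hearts were above all sham vehicle hearts, and the MI prednisone hearts were below all others. In MI the mean fell from 19.4 ± 2.95 to 8.94 ± 1.80 TPM (SD, n = 3), 53.8% lower, a log2 difference of -1.04 (SE 0.15, limma adjusted p = 0.0012). It was called lower after rescaling (-0.63, limma adjusted p = 0.0055) and after the length correction (-0.80, limma adjusted p = 0.0070) too. The ratio of *Bnip3* to *Bnip3l* did not pass the test for surgery (0.05, exact permutation p = 0.745) or for prednisone (0.30, exact permutation p = 0.08, adjusted p = 0.12).

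The transcripts of a gene did not move together. Of 47 transcripts of the 10 genes that passed the filter, 34 held at least 5% of their gene. For prednisone in MI, 14 of those 34 were called lower and 3 higher, where 33% of all 27769 transcripts were called, 27.1% lower and 5.92% higher. For MI under prednisone the counts were 16 lower and 2 higher, beside 22.3% of all transcripts called, 15.6% lower and 6.75% higher. Under vehicle 1 was called in MI against sham, a 440-base *Mff* transcript that was lower, beside 2.84% of all (0.184% lower), and for prednisone in sham 0 were called, beside 0.054% of all. The interaction called 11 lower and 1 higher, beside 18.7% of all, 15.8% lower and 2.87% higher. Transcripts of a gene share exons, so their separate values are estimates of how reads were divided among them.

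In *Opa1* the longest transcript changed least on the log2 scale. The 6230-base transcript (ENSMUST00000160597.7), with 2880 coding bases and neither of the exons shown above, was at 21.3, 19.6 and 18.2 TPM in MI vehicle and 14.4, 11.9 and 20.5 TPM in MI prednisone (-0.35, limma adjusted p = 0.13). The 3153-base transcript with the 111-base exon (ENSMUST00000161186.7) was at 11.3, 11.4 and 12.5 TPM in MI vehicle and 0.05, 0.17 and 2.93 TPM in MI prednisone (-2.91, SE 0.41, limma adjusted p = 0.00074). The 3230-base transcript with the 54-base exon was at 3.41, 4.21 and 6.78 TPM in MI vehicle and was listed at 0 in all 3 MI prednisone libraries. As a share of *Opa1*, the 6230-base transcript went from 48.7% in MI vehicle to 88.5% in MI prednisone (means of 3). Besides the exons shown, the 3153-base and 3230-base transcripts differ from it in where they end, 5884 and 3008 bases before the most distal annotated end of the gene.

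*Bnip3* and *Fundc1* split in the same way. The 1756-base *Bnip3* transcript, which carries the coding end shown above, was at 71.0, 103.9 and 81.7 TPM in MI vehicle and 72.0, 62.4 and 78.6 TPM in MI prednisone, ranges that overlap (-0.25, limma adjusted p = 0.21). The 719-base *Bnip3* transcript without it was at 26.6, 47.7 and 44.4 TPM and 8.82, 6.64 and 15.8 TPM (-1.86, SE 0.29, limma adjusted p = 0.0011). The 1983-base *Fundc1* transcript was at 7.58, 6.75 and 9.20 TPM in MI vehicle and 6.38, 6.47 and 5.33 TPM in MI prednisone (-0.32, limma adjusted p = 0.20). The 1032-base *Fundc1* transcript was at 6.05, 6.71 and 9.43 TPM and 0.52, 0.70 and 2.68 TPM (-1.97, SE 0.33, limma adjusted p = 0.0018). So the gene-level falls of *Opa1*, *Bnip3* and *Fundc1* were made up mostly of transcripts that end before the gene's annotated 3′ end. The same held for *Bnip3l*. Its transcripts that end before went from 80.5 ± 22.7 TPM in MI vehicle to 32.2 ± 4.41 TPM in MI prednisone (SD, n = 3). Those that reach the end went from 26.1 ± 6.52 to 20.2 ± 4.98 TPM.

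Both *Mfn2* and *Pink1* had transcripts that rose. The 4341-base *Mfn2* transcript, 90.6% of the gene in MI vehicle, was at 157.7, 163.8 and 131.2 TPM there and 64.4, 28.2 and 123.3 TPM in MI prednisone (-1.29, SE 0.38, limma adjusted p = 0.024). The 4241-base *Mfn2* transcript, which has the same 2271 coding bases and 1 exon fewer, was at 3.14, 0.98 and 9.82 TPM and 35.2, 60.3 and 9.14 TPM (2.66, SE 0.71, limma adjusted p = 0.015). MI prednisone replicate 3 stayed within the range of MI vehicle for this transcript. The 2375-base *Pink1* transcript with 1740 coding bases was at 240.8, 249.9 and 216.0 TPM in MI vehicle and 175.3, 158.7 and 226.1 TPM in MI prednisone (-0.35, limma adjusted p = 0.056). The 1465-base *Pink1* transcript, which has 3 exons and 504 coding bases and ends at the 3′ end of the gene, was at 3.06, 3.76 and 3.67 TPM and 68.0, 97.4 and 16.3 TPM (3.45, SE 0.53, limma adjusted p = 0.0012). It made up 24.2% of *Pink1* in MI prednisone and between 1.2% and 1.5% in the other groups (means of 3), so the total of *Pink1* in MI prednisone hid a shift between its transcripts.

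*Mfn1* showed the most mixed picture. Its 4562-base transcript, the only one of *Mfn1* that reaches the annotated 3′ end, was called higher with prednisone in MI, from 21.6, 23.6 and 19.7 TPM to 28.2, 29.6 and 26.2 TPM (0.36, SE 0.11, limma adjusted p = 0.026). A 588-base transcript with a retained intron fell from 8.51, 9.98 and 9.002 TPM to 0.91, 1.89 and 0 TPM (-2.52, limma adjusted p = 0.0012), and a 616-base transcript was listed at 0 in all 3 MI prednisone libraries. A 246-base transcript with a retained intron was at 47.0, 48.1 and 11.3 TPM in MI prednisone and at 11.4, 0 and 0.39 TPM in MI vehicle (3.57, SE 1.31, limma adjusted p = 0.056). The flat total of *Mfn1* in MI was therefore a sum of transcripts with opposite signs. The 2 main *Dnm1l* transcripts both reach the 3′ end, and the larger, of 3951 bases, was called lower (-0.48, SE 0.13, limma adjusted p = 0.019). In *Bnip3l* the 789-base transcript without a coding sequence was called lower (-0.94, limma adjusted p = 0.0029) and the 3238-base coding transcript was not (-0.38, limma adjusted p = 0.35). Nor was the 3259-base coding transcript (-0.20, limma adjusted p = 0.46). The *Bnip3l* transcripts that end before the 3′ end have no annotated coding sequence.

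**Figure D3:**
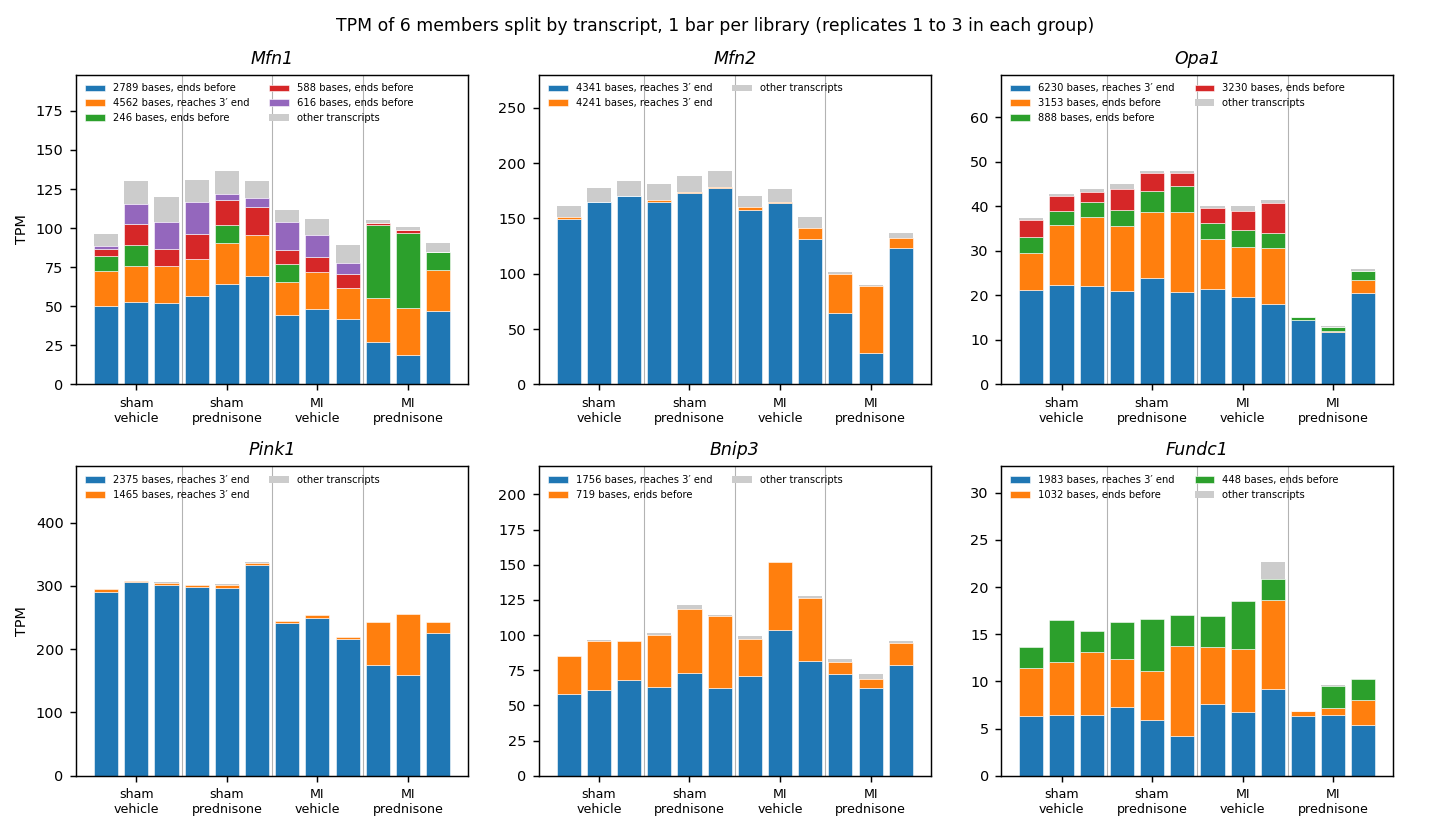
TPM (y axis, linear, from 0) of 6 of the genes in each library, stacked by transcript, with transcripts under 5% of the gene in grey. In MI prednisone the *Opa1*, *Bnip3* and *Fundc1* bars keep mainly the transcript that reaches the 3′ end, and the 4241-base *Mfn2* and 1465-base *Pink1* transcripts are visible mainly there.

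This split was measured over the whole table, with transcripts classed after their values were seen by whether they end within 50 bases of the most distal annotated 3′ end of their gene. Among 9596 genes with both kinds, the median share of a gene's TPM in transcripts reaching that end was 71.7% to 74.2% in the 9 libraries of the other groups and 83.6%, 79.6% and 78.9% in MI prednisone replicates 1 to 3. Among the 9 members with both kinds (all but *Dnm1l*) the median share was 53.4% to 71.7% in the other 9 libraries and 92.5%, 86.5% and 79.3% in MI prednisone. The MI prednisone libraries thus differed from the rest in the share near 3′ ends across the transcriptome, and replicate 3 differed least. In *Opa1* the share was 43.3% to 56.7% in the other libraries and 95.1%, 90.9% and 79.3% in MI prednisone. In *Fundc1* it was 24.5% to 46.7%, against 92.5%, 67.0% and 51.9%, and in *Bnip3* 54.7% to 71.7%, against 86.8%, 86.5% and 82.2%. *Fis1* and *Pink1* were at 97.55% or more in every library. In *Pink1* the 1465-base transcript itself counts as reaching the end, so this share cannot show the shift between its transcripts. That transcript was at 27.9%, 38.0% and 6.72% of *Pink1* in MI prednisone replicates 1 to 3.

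For prednisone in MI, the median difference of the 9 members was -0.25 in transcripts that reach the end and -1.27 in those that end before it. The medians over the 9596 genes were -0.29 and -0.30. Members and genes were not matched by level, and log2(TPM + 1) understates changes of low transcripts. By mean TPM the members stood between the 70.0 and 97.6 percentiles of the genes tested. These medians therefore cannot show whether the split was larger in the members than in genes of like level. The transcripts reaching the end had the higher difference in 7 of the 9 members and in 53.1% of the 9596 genes. For MI under prednisone the medians of the members were 0.07 and -1.35, and the transcripts reaching the end were higher in 8 of 9 members and in 60.8% of genes. The part of this difference between libraries in the falls of *Opa1*, *Mfn2*, *Dnm1l*, *Bnip3*, *Bnip3l* and *Fundc1* was not tested. With MI prednisone represented by replicate 3 alone, an alternative added after the data were seen, 1 of the 10 genes (*Opa1*, -0.63, limma adjusted p = 0.048) was called for prednisone in MI, 1 (*Opa1*, -0.84, limma adjusted p = 0.04986) for MI under prednisone and 0 for the interaction. In that fit *Fundc1* differed by -0.84 (limma adjusted p = 0.05026) and *Bnip3l* by -0.96 (limma adjusted p = 0.065) for prednisone in MI, and the lone library is taken to vary like the other groups.

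**Figure D4:**
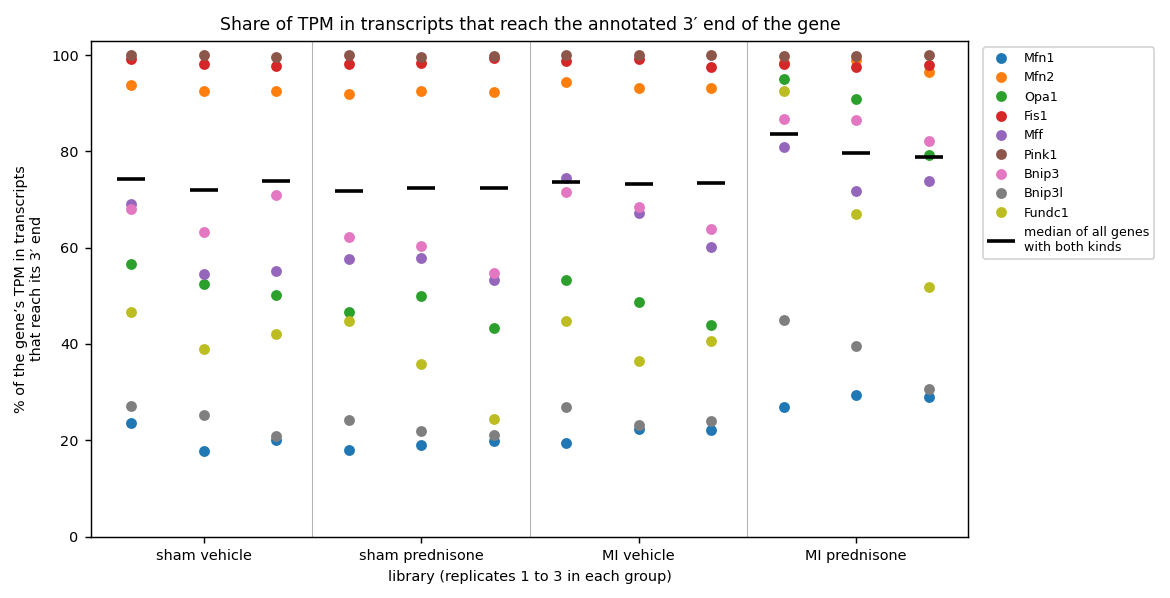
Share of each gene's TPM (y axis, percent) in transcripts that reach the annotated 3′ end, for 9 of the genes in each of the 12 libraries (x axis), with the median over all genes that have both kinds as a black bar. The black bars lie at 71.7% to 74.2% outside MI prednisone and at 83.6%, 79.6% and 78.9% within it.

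Other genes of the same pathways moved in the direction of most genes. Of 60 further genes in 7 lists (partners of fusion and fission, the PINK1-Parkin pathway, other mitophagy receptors, the LC3 and GABARAP proteins that coat autophagosomes, the MICOS complex of the cristae, and transport adaptors), 23 were called lower and 4 higher for prednisone in MI, with a median of -0.33, where 34.9% of all genes were lower and 2.5% higher, with a median of -0.41. After median-ratio rescaling 5 were lower and 13 higher, and after the length correction 3 and 4, so the balance of directions rests on the scaling. For MI under prednisone 18 were lower and 1 higher, beside 14.1% and 2.73% of all genes (rescaled, 14 and 7; length-corrected, 7 and 1), for MI under vehicle 1 lower and 3 higher, beside 0.904% and 15.1% (rescaled, 4 and 0; length-corrected, 1 and 0), and for prednisone in sham 0 in either direction. The interaction called 20 lower and 1 higher, beside 20.7% and 0.54% of all genes (rescaled, 3 and 6; length-corrected, 0 and 1).

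The mitophagy receptor gene *Bcl2l13* had the largest called difference of these lists for prednisone in MI. It went from 33.4 ± 3.17 TPM in MI vehicle to 11.2 ± 5.30 TPM in MI prednisone (SD, n = 3), a log2 difference of -1.58 (SE 0.23, limma adjusted p = 0.0012), and was called lower after rescaling (-1.16) and the length correction (-1.03). Against sham prednisone it differed by -1.33, and its interaction was -1.74. *Tax1bp1*, an autophagy receptor, fell from 47.0 ± 15.0 to 24.2 ± 1.80 TPM (-0.89), and *Yme1l1*, a protease that cleaves OPA1, from 16.8 ± 4.23 to 8.92 ± 0.66 TPM (-0.82). *Trak2*, which links mitochondria to motor proteins, fell from 45.1 ± 10.1 to 23.7 ± 6.95 TPM (-0.91), a call lost after rescaling (limma adjusted p = 0.15). All 4 transport adaptors tested were called lower for prednisone in MI (34.9% of all genes) and in MI under prednisone (14.1%), where *Rhot2*, an outer-membrane GTPase for transport, differed by -0.86, *Trak2* by -0.90. In that comparison *Gbas*, a mitophagy signal also named *Nipsnap2*, differed by -0.85.

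Among the few pathway genes that were higher, *Minos1* of the MICOS complex rose from 209.3 ± 15.1 to 321.0 ± 62.5 TPM with prednisone in MI (0.60, SE 0.14, limma adjusted p = 0.0076), and 2 of 8 MICOS genes were called higher and 0 lower, beside 2.5% and 34.9% of all genes. Of 16 further genes used as references of mitochondrial content, 3 were called higher and 4 lower for prednisone in MI. Of all genes 2.5% were called higher and 34.9% lower. The median of the 16 was -0.02, with 8 differences above 0 and 8 below. The 3 called higher were *Atp5b* of ATP synthase (0.65) and the cytochrome oxidase subunits *Cox4i1* (0.46) and *Cox5a* (0.44). For MI under prednisone 7 of the 16 were called lower and 0 higher (14.1% and 2.73% of all genes), with a median of -0.20, while the 10 members had a median of -0.55. *2410015M20Rik*, a MICOS subunit, was the 1 pathway gene called higher there (0.44). Under vehicle, MI was higher than sham in *Gabarapl1* of the GABARAP family (0.79, SE 0.14, limma adjusted p = 0.0092), *Spire1*, an actin nucleator of fission (0.62), and *Sqstm1*, the autophagy receptor p62 (0.56), and lower in *Mtfp1*, an inner-membrane protein of fission (-0.36). None of these 3 rises was called after rescaling. In the interaction, *Atp5b* (0.57) and *Map1lc3a*, an LC3 gene (0.42), were higher, and *Bcl2l13* (-1.74), *Trak2* (-1.09), *Tax1bp1* (-1.02) and *Usp8*, a deubiquitinase that acts on Parkin (-0.97), lower.

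The genes most like the 3 members with the largest called differences were found by Pearson correlation of log2(TPM + 1) over the 12 libraries, among genes averaging 5 TPM or more. They were *Pcyt1a* (r = 0.996) and *Nebl* (0.993) for *Opa1*, *Patl1* (0.985), *Dpp8* (0.984) and *Arhgap35* (0.982) for *Fundc1*, and *Man1a* (0.977), *Fam53c* (0.977) and *Ddx6* (0.977) for *Bnip3l*. The 12 points share the group structure and the library differences described above, so these values describe the table only. Pseudogenes lie within *Mfn2* (*Gm13156*) and *Bnip3* (*Gm18258*) and were listed at no more than 0.32 and 0.69 TPM, and the annotated antisense genes of *Dnm1l* and *Bnip3* (*Gm49521* and *Gm45507*) were not analysed here.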

How the data were processed

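RNA from 12 hearts was sequenced as stranded mRNA libraries, per the labels' protocols. The deposited table, made by the authors, gives TPM for 105129 transcript rows, each library summing to 1000000. Trimmomatic, HISAT2, kallisto and build mm10 are named per the submitters' processing notes, with no role. The annotation release and the read depth are not given in the sources used here, so counting error is unknown.

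TPM was summed to genes by symbol. Genes with 1 TPM or more in 3 or more libraries were fitted as log2(TPM + 1), a scale that understates changes of low genes, with limma 3.58.1 in R 4.3.3 (group means of all 12 libraries, eBayes with trend, Benjamini-Hochberg over all 13158 genes, called at an adjusted p under 0.05). Transcripts were fitted in the same way (27769). The 3 ratios were tested by exact permutation. The code was tested on simulated data.

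Members and lists were chosen with earlier results of these data known. Named were the 10 members, their transcripts holding 5% or more of a gene, the largest called pathway differences in each direction, and the 3 genes most like each of the 3 members with the largest called differences for prednisone in MI, of which 1 is not reported here. Alternatives were median-ratio rescaling, a transcript-length correction (loess, span 0.5, 99.41% of genes), no filter, no trend, pseudocount 0.1, a replicate block, only the groups compared, the most abundant transcript, removal of mitochondrial and globin rows, and leaving out each library. After the data were seen, MI prednisone was also represented by its replicate 3 alone, and transcripts were classed by their 3′ end. Positions and transcript sequences are from GENCODE M21 (GRCm38, 94.65% of transcript identifiers matched) and promoters from RefSeq (GRCm38.p6).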

Additional observations from a re-analysis of the deposited data

Results flagged for a closer look

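For 6 of the 10 genes the prednisone difference in MI departed from that in sham by the test of the difference itself (limma interaction, 3 mice in each of the 4 groups). The interaction on the log2 scale was -0.72 (adjusted p = 0.028) for *Mfn2*, -1.37 (adjusted p = 0.010) for *Opa1*, -0.73 (adjusted p = 0.015) for *Dnm1l*, -0.85 (adjusted p = 0.024) for *Bnip3*, -1.05 (adjusted p = 0.014) for *Bnip3l* and -1.17 (adjusted p = 0.0089) for *Fundc1*, by limma. In each of the 6 the 3 MI prednisone mice were below the 3 MI vehicle mice, while the mean difference in sham was above 0. Such a separation in MI was present in 42.6% of all genes, and 9030 of 13158 genes were above 0 in sham. By the interaction test 20.7% of all genes were called lower, and the median of all genes was -0.48. After median-ratio rescaling *Fundc1* was the 1 gene of the 6 still called (-0.67, limma adjusted p = 0.039), and after the length correction, or with MI prednisone represented by its replicate 3 alone, 0 of the 6 were. The part of the higher share of TPM near 3′ ends in MI prednisone in these values was not tested.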

How the results depend on the processing

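With 3 mice a group, no read counts and a median gene that moved between groups, the calls depended on how the libraries were scaled, and the cause was not tested. Of 10 genes, 1 was called for MI under vehicle, 8 for MI under prednisone, 0 for prednisone in sham, 6 for prednisone in MI and 6 for the interaction. For MI under vehicle the count was 2 after median-ratio rescaling and 0 with no trend, with only the 2 groups compared or with the most abundant transcript. MI under prednisone had 5 calls with no filter or no trend, 4 after the length correction and 1 with replicate 3 alone. For prednisone in MI it was 3 with only the 2 groups compared or with the most abundant transcript, 2 after the length correction and 1 with replicate 3 alone. For the interaction it was 2 after rescaling or with the most abundant transcript, 3 with no filter or without mitochondrial, nuclear-copy and globin rows, and 0 after the length correction or with replicate 3 alone. Leaving out 1 library at a time gave 0 to 3 calls for MI under vehicle, 4 to 9 for MI under prednisone, 0 to 0 for prednisone in sham, 5 to 7 for prednisone in MI and 4 to 7 for the interaction.

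Replicate numbers did not pair the samples: the correlation of same-numbered deviations ran from -0.58 to 0.14 over 12 pairs. A replicate block in the fit left 0 genes called for MI under vehicle, 6 for MI under prednisone, 0 for prednisone in sham, 6 for prednisone in MI and 6 for the interaction. The block joined to a length correction gave counts of 0, 4, 0, 2 and 0, in the same order, and the signs were those of the length correction given below.

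The ratio of *Mfn1* to *Mfn2* for prednisone was 0.267 after the length correction (exact permutation p = 0.055), and that of *Dnm1l* to *Opa1* for MI was 0.181 with the most abundant transcript (exact permutation p = 0.18). With 1 library left out, the ratio of *Mfn1* to *Mfn2* ran from 0.0620 to 0.254 for MI and 0.265 to 0.457 for prednisone, *Bnip3* to *Bnip3l* from -0.0712 to 0.143 and 0.209 to 0.423, and *Dnm1l* to *Opa1* from 0.493 to 0.607 and 0.243 to 0.357.

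Of the values of single genes under settings other than a library left out, 386 kept direction and call, 88 lost a call, 6 gained one and 40 changed sign. For MI under vehicle, rescaling gave -0.211 for *Dnm1l*, -0.211 for *Fis1* and -0.0652 for *Fundc1*, the length correction -0.229, -0.174 and -0.0751, and removal of mitochondrial rows -0.0422 for *Dnm1l* and -0.0364 for *Fis1*. In MI under prednisone the most abundant transcript gave 0.0979 for *Bnip3* and 0.0745 for *Fundc1*. For prednisone in sham, rescaling gave -0.0275 for *Bnip3l*, -0.0945 for *Fis1* and -0.0462 for *Pink1*, the length correction -0.00887 for *Fis1* and -0.0134 for *Pink1*, removal of mitochondrial rows -0.00826, -0.0755 and -0.0267 for *Bnip3l*, *Fis1* and *Pink1*, and the most abundant transcript -0.150 for *Fundc1*. For prednisone in MI, rescaling gave 0.125 for *Mff* and 0.390 for *Mfn1*, the length correction 0.0144 for *Dnm1l* and 0.394 for *Mfn1*, removal of mitochondrial rows 0.0357 for *Mfn1*, the most abundant transcript -0.347 for *Pink1*, and replicate 3 alone -0.126 for *Fis1*. For the interaction, rescaling gave 0.0915 for *Mff* and 0.279 for *Mfn1*, the length correction 0.253 for *Mfn1*, the most abundant transcript -0.395 for *Pink1*, and replicate 3 alone -0.127 for *Fis1* and -0.0275 for *Pink1*. With 1 library left out, the values that crossed 0 ranged for MI under vehicle from -0.245 to 0.00451 (*Mff*) and -0.0946 to 0.0197 (*Opa1*). Those for prednisone in sham ranged from -0.0261 to 0.115 (*Bnip3l*), -0.0887 to 0.047 (*Fis1*), -0.00359 to 0.209 (*Mff*) and -0.00359 to 0.0788 (*Pink1*). Those for prednisone in MI ranged from -0.138 to 0.0226 (*Mfn1*) and -0.00788 to 0.0956 (*Pink1*), and that of the interaction from -0.0578 to 0.0552 (*Pink1*). None of these was called in the fit of all 12 libraries.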
